A study of Homo sapiens with 9 samples.

Results

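The endothelin genes are the small family of peptides, receptors and processing enzymes of the endothelin system, and in these data they were led by EDN1, the gene of endothelin-1. They were taken as every probe set that the HG-U133 Plus 2.0 annotation gives to a single symbol among EDN1, EDN2, EDN3, EDNRA, EDNRB, ECE1 and ECE2. That rule found 6 of the 7 genes, among 19775 genes named on the arrays, through 14 of the 54613 probe sets that are not controls. There were 3 probe sets each for EDN1, EDNRB and ECE2, 2 each for EDN3 and ECE1, and 1 for EDN2, while EDNRA was not analysed here because the annotation used names no probe set for it. EDN1 was singled out because 2 of its probe sets passed the thresholds with Dmimic against AllStar in an earlier pass over these same arrays, so its values below are a description and carry no test.

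The cells were MDA-MB-231, an established line from a triple-negative breast cancer, grown in serum and reverse transfected with Lipofectamine 2000 in 6-well plates. They received Dmimic, Qmimic or the negative control AllStar, each at 10 nM, with 3 biological replicates in a group, and total RNA was extracted after 48 h. All groups therefore share the lipid, the dose and the time, and no untransfected cells were analysed here. Neither the meaning of the letters D and Q nor the sequence of any of the 3 small RNAs is given in the labels. The title of the study is about miR-34a, a human microRNA, and its target AXL, a receptor tyrosine kinase.

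Endothelins are made as long precursors that furin-type proteases cut to an inactive big endothelin, which the membrane proteases ECE1 and ECE2 then cut to the active peptide. The peptides act on the G protein-coupled receptors EDNRA and EDNRB, which raise calcium through phospholipase C, and EDNRB also takes endothelin up and clears it. Endothelin-1 is best known as the vasoconstrictor of the vessel wall, and carcinoma cells, those of the breast included, also secrete it. Its output is set largely by transcription of EDN1, since the peptide is released soon after it is made.

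The mature miR-34a-5p is shown because the title is about it, with its seed, bases 2 to 8, in capitals. It is the RefSeq sequence on GRCh38.p14, on the minus strand of chr1:9151735-9151756, and the labels do not say whether either mimic carries it.
miR-34a-5p: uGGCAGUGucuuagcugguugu
The EDN1 gene lies on chromosome 6 (bases 12230516 to 12297194, GRCh38.p14), and its promoter is shown because EDN1 was the member whose RNA differed most between the groups. RefSeq gives EDN1 3 start sites, and the window of the third, the one of these that held any of the motifs searched, runs from 250 bases before to 50 after that start and is printed from the plus strand of chr6:12290111-12290410. Capitals mark matches, on either strand, to a GATA motif (AGATAA), the AP-1-like motif TGACTAA and a TATA box (TATAAA).
EDN1 promoter: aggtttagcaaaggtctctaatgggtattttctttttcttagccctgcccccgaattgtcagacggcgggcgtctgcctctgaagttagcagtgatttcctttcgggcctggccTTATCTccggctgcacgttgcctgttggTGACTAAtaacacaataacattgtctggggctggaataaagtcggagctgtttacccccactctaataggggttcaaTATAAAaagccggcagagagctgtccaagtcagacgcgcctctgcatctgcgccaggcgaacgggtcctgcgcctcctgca
The GATA match began at position -136, the TGACTAA match at -108 and the TATAAA match at -31 from that start. Of 35116 promoter windows of 300 bases, 10.3% hold the GATA motif, 1.9% TGACTAA and 11.5% TATAAA. The AP-1 consensus TGACTCA, held by 4.95% of windows, was in none of the 3 EDN1 windows, and none of the 4 motifs was in the windows of EDN2, EDNRA, EDNRB or ECE1. These are matches of letters and say nothing about binding in these cells.

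The control array AllStar replicate 3, differed from the remaining 8 in its values as a whole and on several endothelin probe sets. Over all probe sets it correlated with them at 0.974 to 0.981, while they correlated among themselves at 0.993 to 0.998, and its interquartile range was 2.99, against 3.41 to 3.53. Each result is therefore given for all 9 arrays and for the 8 arrays without AllStar replicate 3, where 2 AllStar arrays remain. Values are log2 signals made by the authors with RMA, and levels of different probe sets are not comparable with each other. A probe set was called when its limma p, adjusted by Benjamini-Hochberg over all 54613 probe sets, was under 0.05 and its change was at least 1.5-fold.

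On the EDN1 probe set with the highest signal, 222802_at, the log2 signal was 10.16, 10.20 and 10.33 in the Dmimic arrays. It was 9.46, 9.50 and 9.50 in the Qmimic arrays and 9.04, 9.12 and 8.85 in the AllStar arrays. Every Dmimic array lay above every Qmimic array, and every Qmimic array above every AllStar array. The means were 10.23 ± 0.09 with Dmimic, 9.49 ± 0.02 with Qmimic and 9.0 ± 0.14 with AllStar (SD, n = 3 each). The log2 change was 1.23 with Dmimic against AllStar (SE 0.10, 2.34-fold), 0.48 with Qmimic against AllStar (SE 0.10, 1.40-fold) and 0.74 with Dmimic against Qmimic (SE 0.10, 1.68-fold).

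The second EDN1 probe set, 218995_s_at, gave the same order of groups. Its log2 signal was 9.58, 9.49 and 9.77 with Dmimic, 9.04, 9.09 and 9.13 with Qmimic and 8.54, 8.60 and 8.40 with AllStar, again with no overlap. The log2 changes were 1.10 with Dmimic against AllStar, 0.57 with Qmimic against AllStar and 0.53 with Dmimic against Qmimic (SE 0.10 each). Of all 54613 probe sets, 0.632% had every Dmimic array above every Qmimic array and every Qmimic array above every AllStar array, and 0.139% had the opposite order. The values of the 2 probe sets correlated over the 9 arrays at r = 0.985. Both are annotated to EDN1 and were read from the same wells, so they are not separate evidence.

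The third EDN1 probe set, 1564630_at, did not follow the other two. Its log2 signal was 6.23, 6.01 and 6.17 with Dmimic, 5.96, 5.80 and 5.99 with Qmimic and 6.04, 6.20 and 6.99 with AllStar. The high AllStar value was replicate 3, and the other AllStar arrays lay within the range of the Dmimic arrays. Every Qmimic array lay below every AllStar array, as for 10.8% of all probe sets. Every Dmimic array lay above every Qmimic array, as on the other EDN1 probe sets and as for 8.95% of all probe sets, with a log2 difference of 0.22. Its change with Dmimic against AllStar was -0.27 with 9 arrays and 0.02 without AllStar replicate 3. Its correlation with 222802_at was -0.364 over 9 arrays and 0.283 over 8. The annotation used does not place the probe sets along the EDN1 transcripts, so which transcript each of the 3 reads was not tested.

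**Figure D1:**
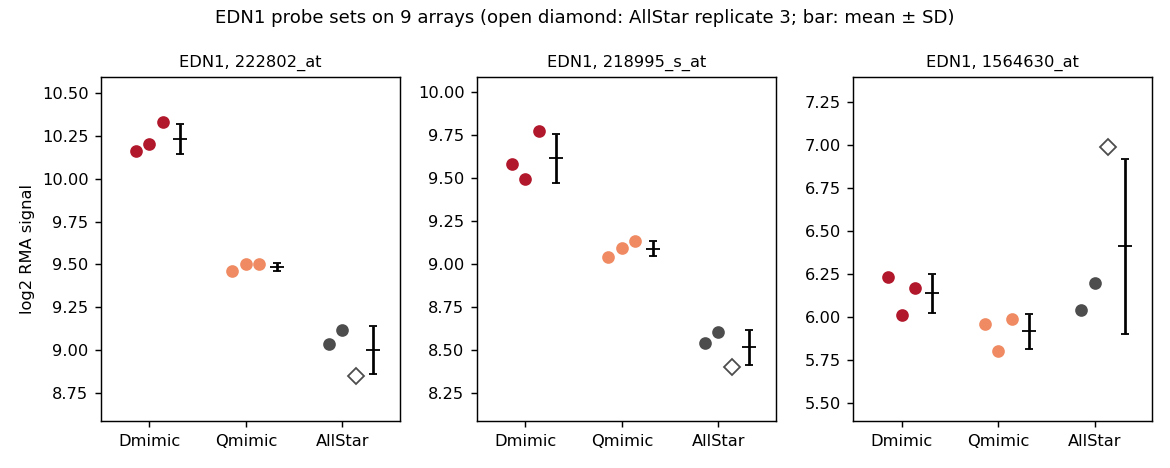
Log2 RMA signal of the 3 EDN1 probe sets on each of 9 arrays, by group from Dmimic through Qmimic to AllStar; points are arrays, the open diamond is AllStar replicate 3, and the bar beside each group is its mean ± SD (n = 3). On 222802_at the Dmimic arrays sit at 10.16 to 10.33, the Qmimic arrays at 9.46 to 9.50 and the AllStar arrays at 8.85 to 9.12, while on 1564630_at the Dmimic arrays, at 6.01 to 6.23, sit above the Qmimic arrays, at 5.80 to 5.99, and overlap the AllStar arrays, at 6.04 to 6.99.

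AllStar replicate 3 had the lowest EDN1 signal on both leading probe sets, by 0.23 on 222802_at and 0.18 on 218995_s_at below the mean of its sister arrays AllStar 1 and 2. Among probe sets within 0.5 log2 of 222802_at in those controls the median offset on that array was -0.45, so EDN1 lay above that median. Without that array the log2 change with Dmimic against AllStar was 1.15 on 222802_at (SE 0.07, 2.22-fold) and 1.04 on 218995_s_at (SE 0.09, 2.05-fold). The changes with Qmimic against AllStar were 0.40 (SE 0.07, 1.32-fold) and 0.51 (SE 0.09, 1.43-fold). The order of Dmimic, Qmimic and AllStar was complete on both probe sets in the 8 arrays too, as it was for 0.786% of all probe sets.

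With all 9 arrays the thresholds called 2 of the 14 endothelin probe sets with Dmimic against AllStar, both of EDN1, where 0.00549% of all probe sets were called. EDN1 was chosen from that contrast, so nothing is read from the count. It was 0 without AllStar replicate 1, without any of the 3 Qmimic arrays and without Dmimic replicate 1 or 3, and 0 in a fit of the Dmimic and AllStar arrays without the Qmimic ones. In each of those fits 0 of all 54613 probe sets were called in that contrast. The size of the change moved little: over the fits that left out 1 array it was 1.15 to 1.29 on 222802_at and 1.02 to 1.16 on 218995_s_at. Without AllStar replicate 3 the count with Dmimic against AllStar was 2 of 14, where 0.864% of all probe sets were called.

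With Qmimic against AllStar, limma called 0 of the 14 endothelin probe sets in either fit, where 0% of all probe sets were called with 9 arrays and 0.54% with 8. In that contrast 4 of the 14 had an unadjusted p under 0.05 with 9 arrays, against 16.3% of all probe sets, and 5 with 8, against 18.2%, and the EDN1 changes lay under 1.5-fold in both. In each fit 3 of these were the EDN1 probe sets. Of those 1564630_at lay lower, at -0.49 with 9 arrays and -0.21 with 8, and the others higher. In the 8 arrays the others passed the adjusted p and not the 1.5-fold threshold (limma adjusted p = 0.0278 on 222802_at and 0.023 on 218995_s_at). The share of all probe sets that passed the adjusted p alone was not counted with Qmimic against AllStar. With Dmimic against Qmimic the count was 0 of 14 with 9 arrays, where 0% of all probe sets were called and 2 of the 14, against 2.41% of all, had an unadjusted p under 0.05. It was 1 of 14 in the fit without AllStar replicate 3, the EDN1 probe set 222802_at, where 0.0806% of all probe sets were called. In that fit 218995_s_at passed the adjusted p (0.0313 from limma) and, at 1.44-fold, not the fold threshold. The 2 contrasts with AllStar share its arrays, and both contrasts with Dmimic share the arrays that led to the choice of EDN1.

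**Figure D2:**
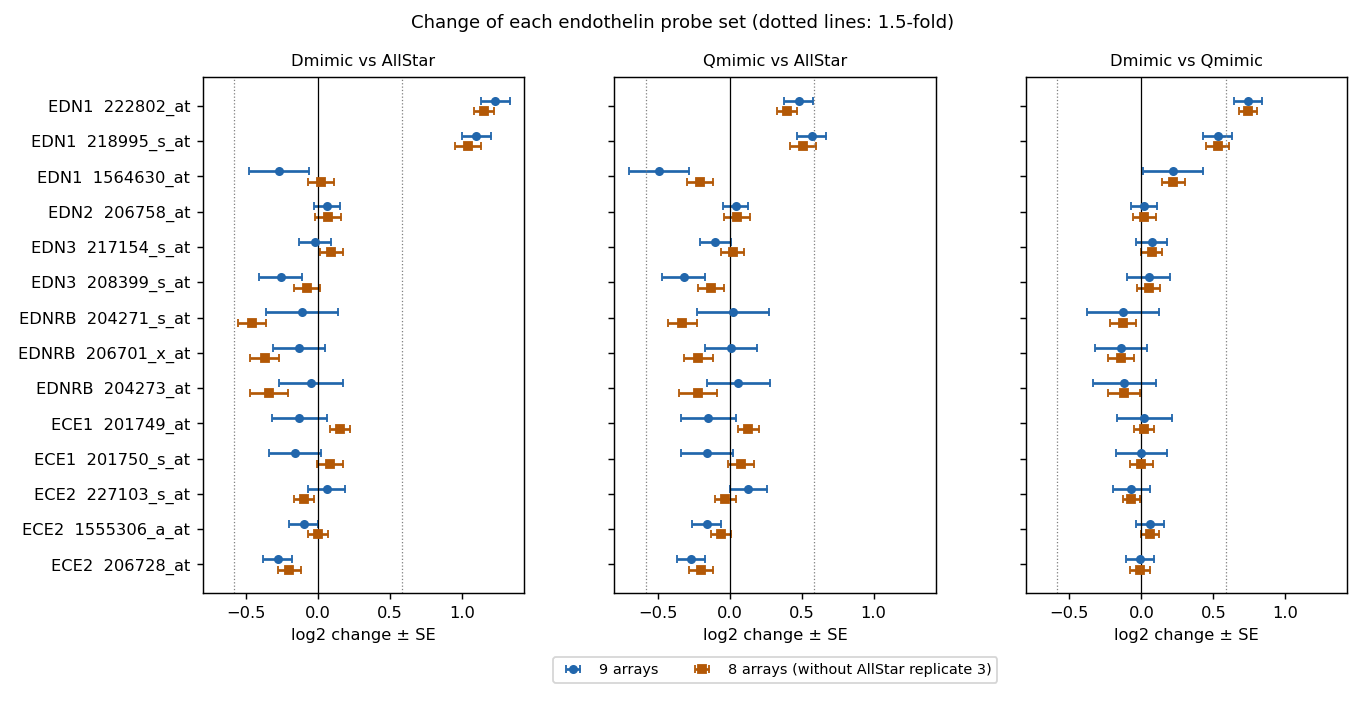
Log2 change ± SE of each of the 14 endothelin probe sets in 3 comparisons, from limma fits with all 9 arrays (circles) and with 8 arrays, without AllStar replicate 3 (squares); dotted lines mark 1.5-fold. With Dmimic against AllStar 222802_at and 218995_s_at stand at 1.23 and 1.10 with 9 arrays, and the 11 probe sets of other genes lie between -0.28 and 0.06.

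EDN2 and EDN3, the genes of the other two endothelin peptides, did not follow EDN1. EDN2 (chromosome 1, bases 41478775 to 41484683) had a log2 signal of 5.70, 5.91 and 5.79 with Dmimic, 5.74, 5.71 and 5.88 with Qmimic and 5.65, 5.79 and 5.76 with AllStar. The groups overlapped, and the signal lay near the middle of each array, at percentiles 52.7 to 56.8. The log2 change was 0.06 with Dmimic against AllStar (95% interval -0.14 to 0.27, adjusted p = 0.745 from limma) and 0.04 with Qmimic against AllStar (-0.17 to 0.24, adjusted p = 0.814).

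EDN3, the peptide gene best known for neural crest development through EDNRB, lies on chromosome 20 (bases 59300611 to 59325992). Its probe set 217154_s_at had a log2 signal of 4.54, 4.76 and 4.78 with Dmimic, 4.68, 4.60 and 4.58 with Qmimic and 4.62, 4.58 and 4.95 with AllStar. The other, 208399_s_at, had 3.87, 3.92 and 3.78 with Dmimic, 3.82, 3.67 and 3.93 with Qmimic and 3.86, 4.02 and 4.48 with AllStar. Both lay in the lower part of the arrays, at percentiles 18.3 to 38.4, and on both the highest array was AllStar replicate 3. With Dmimic against AllStar the log2 changes were -0.02 (95% interval -0.28 to 0.23) and -0.26 (-0.60 to 0.07) with 9 arrays, and without AllStar replicate 3 they were 0.09 (-0.09 to 0.28) and -0.08 (-0.28 to 0.12). No EDN3 value passed the adjustment in either fit.

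EDNRB, the receptor that also clears endothelin, lies on chromosome 13 (bases 77895487 to 77975527), and its 3 probe sets showed a common pattern. On 204271_s_at, the one with the highest signal, the values were 7.97, 8.0 and 7.66 with Dmimic, 7.96, 8.06 and 8.01 with Qmimic and 8.34, 8.34 and 7.28 with AllStar. On 206701_x_at they were 6.69, 6.67 and 6.38 with Dmimic, 6.70, 6.71 and 6.76 with Qmimic and 6.83, 7.06 and 6.24 with AllStar. AllStar replicates 1 and 2 were the highest arrays on both, and AllStar replicate 3 the lowest. On 204273_at the values were 4.69, 4.59 and 4.53 with Dmimic, 4.52, 5.01 and 4.63 with Qmimic and 4.86, 5.01 and 4.10 with AllStar, with AllStar replicate 3 again the lowest.

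With all 9 arrays the EDNRB changes against AllStar were -0.11, -0.13 and -0.05 with Dmimic and 0.02, 0.01 and 0.06 with Qmimic, in the order 204271_s_at, 206701_x_at and 204273_at (adjusted p = 0.73 to 0.978 from limma). The 95% half-width was 0.55 on 204271_s_at, wider than on any other member. Without AllStar replicate 3 the change on 204271_s_at was -0.46 with Dmimic (SE 0.10, 1.38-fold lower, adjusted p = 0.0432 from limma), which passed the adjusted p and not the 1.5-fold threshold. In that fit 2.31% of all probe sets passed the adjusted p alone with Dmimic. The other EDNRB probe sets lay at -0.37 and -0.34 with Dmimic, with limma adjusted p of 0.0983 and 0.204. With Qmimic the 3 lay at -0.33, -0.22 and -0.22, with limma adjusted p of 0.117, 0.292 and 0.398.

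In the 8 arrays every Dmimic array lay below both remaining AllStar arrays on all 3 EDNRB probe sets, as for 16.5% of all probe sets. Every Qmimic array did so on 204271_s_at and 206701_x_at, as for 20% of all probe sets. Between the mimics the EDNRB difference was -0.13 on 204271_s_at with 8 arrays (95% interval -0.33 to 0.07, adjusted p = 0.615), a comparison that uses no AllStar array for its size. AllStar replicate 3 lay 1.06 below the mean of its sister arrays on 204271_s_at, where the median offset of probe sets of like level was -0.47, with a 5th percentile of -1.04. Its part in the EDNRB values is the difference between the 2 fits given here.

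**Figure D3:**
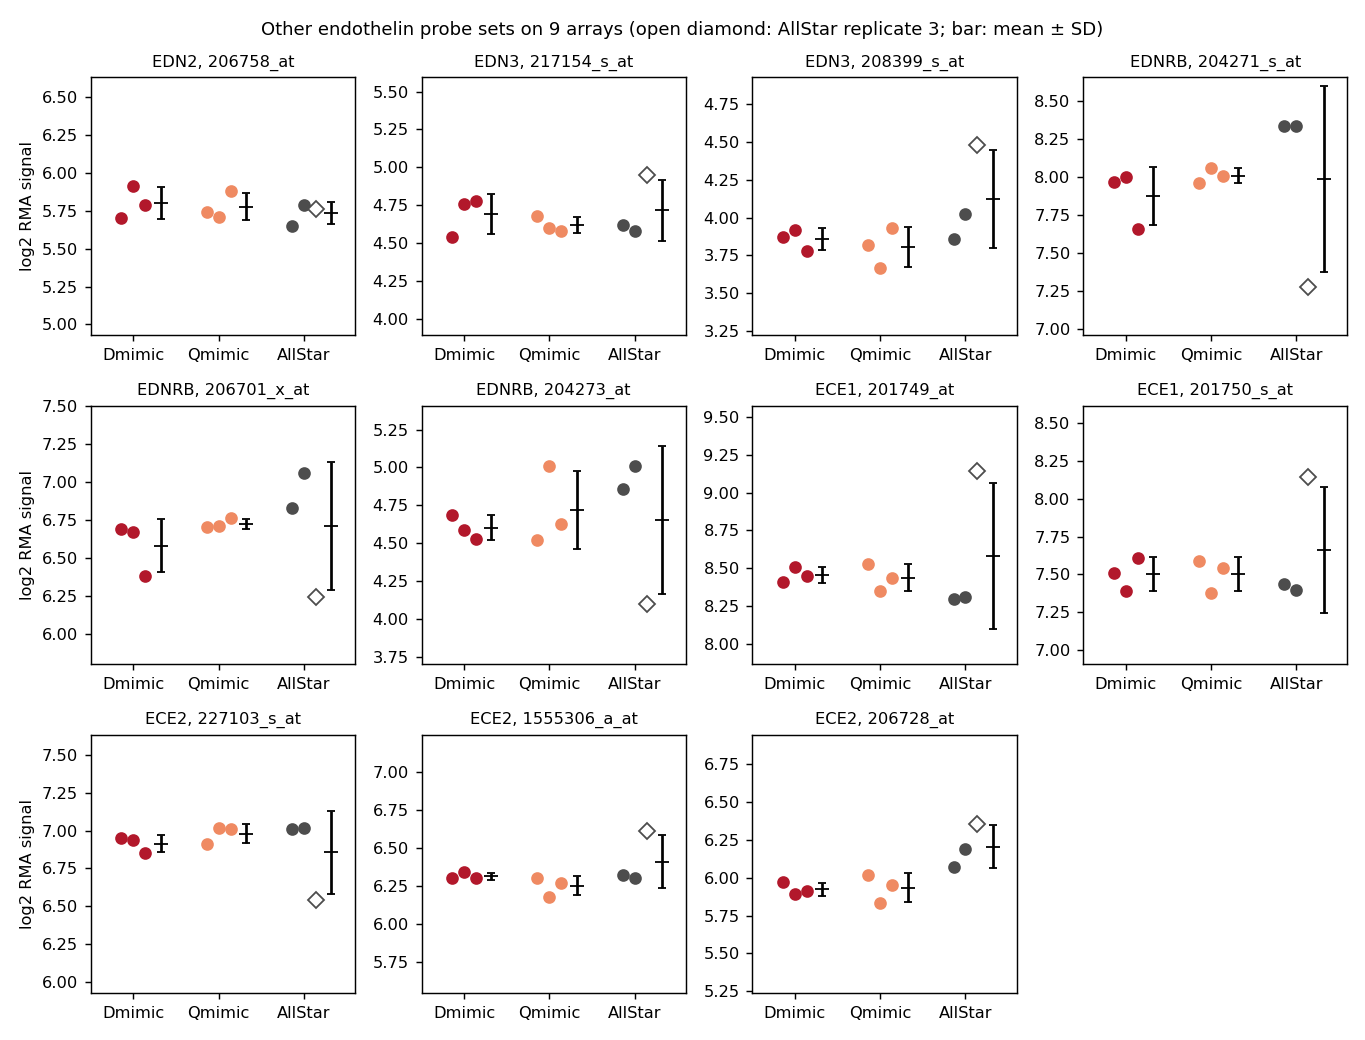
Log2 RMA signal of the 11 probe sets of EDN2, EDN3, EDNRB, ECE1 and ECE2 on each of 9 arrays, by group from Dmimic through Qmimic to AllStar; points are arrays, the open diamond is AllStar replicate 3, bars are mean ± SD (n = 3), and every panel spans the same log2 range. AllStar replicate 3 is the lowest array on the 3 EDNRB panels and the highest on both ECE1 panels.

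ECE1, the main converting enzyme of big endothelin, lies on chromosome 1 (bases 21217250 to 21345504). Its probe set 201749_at had a log2 signal of 8.41, 8.51 and 8.45 with Dmimic, 8.53, 8.35 and 8.44 with Qmimic and 8.30, 8.31 and 9.14 with AllStar. The probe set 201750_s_at had 7.51, 7.39 and 7.61 with Dmimic, 7.59, 7.38 and 7.54 with Qmimic and 7.44, 7.40 and 8.14 with AllStar. AllStar replicate 3 was the highest array on both, 0.84 and 0.72 above the mean of the other AllStar arrays, where probe sets of like level lay at medians of -0.48 and -0.41.

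The sign of the ECE1 change depended on that array. With 9 arrays it was -0.13 with Dmimic and -0.15 with Qmimic on 201749_at, and without AllStar replicate 3 it was 0.15 (95% interval -0.01 to 0.31, adjusted p = 0.33 from limma) and 0.13 (-0.03 to 0.30, adjusted p = 0.366). Between the mimics the difference was 0.02 with 8 arrays (95% interval -0.13 to 0.16).

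ECE2, the related converting enzyme known for its activity at acid pH, lies on chromosome 3 (bases 184276022 to 184293031). On 227103_s_at the log2 signal was 6.95, 6.94 and 6.85 with Dmimic, 6.91, 7.02 and 7.01 with Qmimic and 7.01, 7.02 and 6.54 with AllStar. On 206728_at it was 5.97, 5.89 and 5.91 with Dmimic, 6.02, 5.83 and 5.95 with Qmimic and 6.07, 6.19 and 6.35 with AllStar. All 6 mimic arrays lay below all 3 AllStar arrays on 206728_at, with changes of -0.28 with Dmimic (adjusted p = 0.29 from limma) and -0.27 with Qmimic (adjusted p = 0.255). Of all probe sets, 7.04% had every Dmimic array below every AllStar array and 10.8% every Qmimic array. On 1555306_a_at the range over the 9 arrays was 6.18 to 6.61 and the changes were -0.10 and -0.16, and no ECE2 value passed the adjustment in either fit.

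Over the 11 probe sets of the other 5 genes, limma called 0 in each of the 3 comparisons with 9 arrays and 0 with 8. With Dmimic against AllStar, Qmimic against AllStar and Dmimic against Qmimic, 0.00549%, 0% and 0% of all probe sets were called with 9 arrays. With 8 arrays the called shares were 0.864%, 0.54% and 0.0806%, so 0 of 11 says little about these genes. An unadjusted p under 0.05 was found for 1 of the 11 with Dmimic against AllStar, 1 with Qmimic against AllStar and 0 with Dmimic against Qmimic in the 9 arrays, and for 4, 2 and 0 in the 8 arrays. Over all probe sets those shares were 12.8%, 16.3% and 2.41% with 9 arrays and 17.1%, 18.2% and 11.1% with 8. Their changes between Dmimic and Qmimic ran from -0.14 to 0.07, with 95% half-widths of 0.13 to 0.25 in the 8 arrays.

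**Figure D4:**
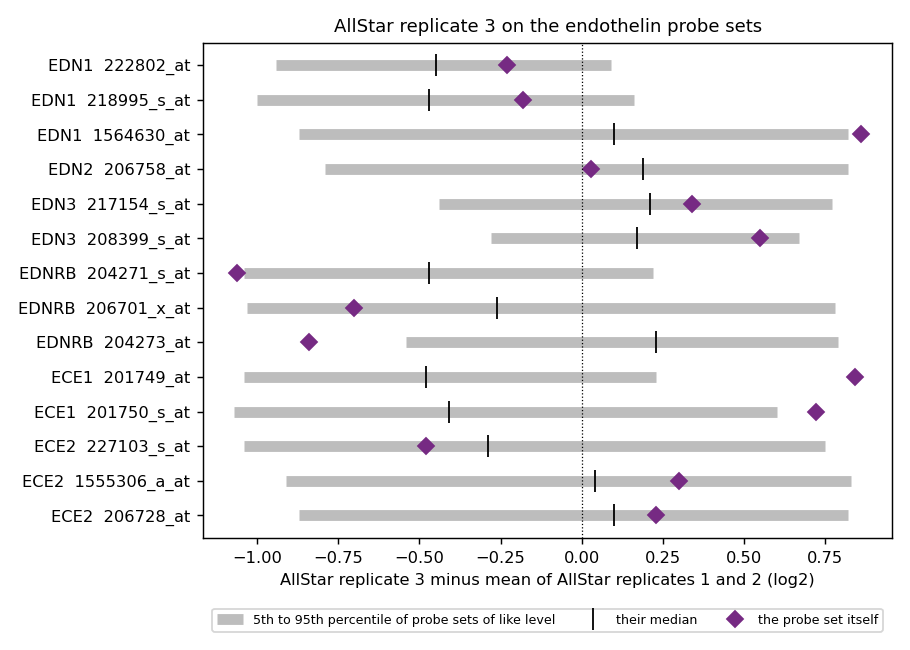
AllStar replicate 3 minus the mean of AllStar replicates 1 and 2, in log2, for each of the 14 endothelin probe sets (diamonds), with the median (tick) and the 5th to 95th percentile (grey bar) of all probe sets within 0.5 log2 of it in level. The leading EDN1 probe sets stand at -0.23 and -0.18, inside their grey bars. Outside theirs stand 5 probe sets, 1564630_at of EDN1 at 0.86, 204271_s_at and 204273_at of EDNRB at -1.06 and -0.84, and 201749_at and 201750_s_at of ECE1 at 0.84 and 0.72.

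Genes whose pattern over the arrays was most like EDN1 were looked for among 1979 genes above the middle of the arrays whose highest and lowest arrays differed by at least 1 log2. The 5 with the highest Pearson correlation with 222802_at over the 9 arrays were PDE1C, a calmodulin-dependent phosphodiesterase (r = 0.973), C12orf76 (r = 0.959), RGS7, a regulator of G protein signalling (r = 0.952), CFAP251, a cilium protein (r = 0.949), and RBM24, an RNA-binding protein (r = 0.941). PDE1C had 9.79, 9.73 and 9.88 with Dmimic, 9.21, 9.38 and 9.33 with Qmimic and 8.68, 8.91 and 8.45 with AllStar. RBM24 had 9.14, 9.14 and 9.16 with Dmimic, 8.56, 8.77 and 8.77 with Qmimic and 8.03, 8.21 and 7.54 with AllStar. Both showed the same 3 steps as EDN1, with no overlap between groups.

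Over the 8 arrays without AllStar replicate 3 the 5 most like EDN1 were C12orf76 (r = 0.976), EIF5A2 (r = 0.972), PDE1C (r = 0.972), KATNAL1 (r = 0.957) and EXOSC6 (r = 0.955), and 2 of the 5 were in both sets. The candidates were the same 1979 genes, chosen by their range over 9 arrays. Over the 8 arrays EIF5A2 ran from 7.6 to 8.35, KATNAL1 from 8.49 to 8.91 and EXOSC6 from 7.09 to 7.76. These genes therefore passed the range of 1 log2 only through AllStar replicate 3. KATNAL1 fell to place 213 over 9 arrays, with AllStar replicate 3 at 7.65 against 8.49 and 8.55 in the other AllStar arrays. Other probe sets of these genes could differ: over the 6 of PDE1C the correlation with EDN1 ran from 0.283 to 0.973, and over the 3 of RGS7 from -0.719 to 0.952. The arrays fall into 3 groups and all these genes were read from the same 9 arrays, so these correlations describe the likeness and carry no p.

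**Figure D5:**
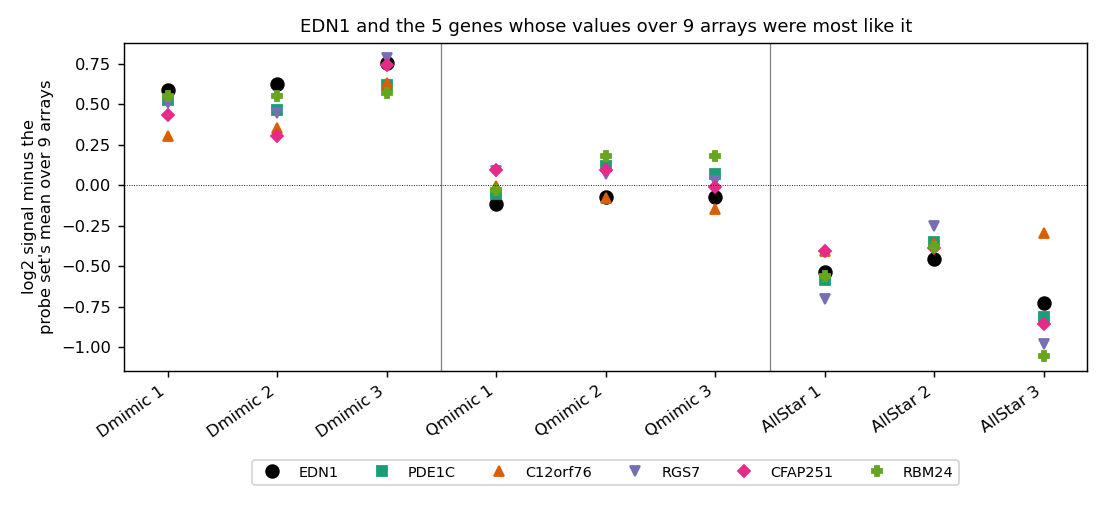
Log2 signal minus the probe set's own mean over the 9 arrays, for EDN1 (222802_at) and the 5 genes with the highest correlation with it, on each array from Dmimic through Qmimic to AllStar. The points of all 6 genes lie highest with Dmimic and lowest with AllStar, and C12orf76 departs on AllStar replicate 3, where it had 7.23 against 7.12 and 7.17 in AllStar replicates 1 and 2.

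The wider endothelin pathway was described with 4 lists of 108 symbols, of which 104 were measured, with a gene read from whichever of its probe sets had the highest mean. Of all 19775 genes, 0.0101% were called with Dmimic against AllStar, 0% with Qmimic against AllStar and 0% with Dmimic against Qmimic in the 9 arrays, and limma called 0 genes of any list there. In the order of processing, EDN1 regulators, receptor signalling and other vasoactive genes, an unadjusted p under 0.05 was found in the 9 arrays for 1, 6, 5 and 6 genes with Dmimic against AllStar, where 17.3% of all genes had one. The counts were 1, 7, 7 and 5 with Qmimic against AllStar, against 19.7% of all genes, and 1, 1, 2 and 0 with Dmimic against Qmimic, against 2.54%. Without AllStar replicate 3 the shares of all genes were 21.3%, 20.9% and 11.7% in the same order of comparisons. In the 8 arrays 1.27% of all genes were called with Dmimic against AllStar, 0.693% with Qmimic against AllStar and 0.0961% with Dmimic against Qmimic.

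Endothelin processing and clearance, 12 genes, had 0 called in any comparison of either fit. An unadjusted p under 0.05 was found for 2 of the 12 with Dmimic against AllStar in the 8 arrays, against 21.3% of all genes. The median log2 change in the 8 arrays was 0.02 with Dmimic against AllStar, where that of all genes was 0.01. FURIN, the protease of the first cut, had 7.79, 7.89 and 7.94 with Dmimic and 7.89, 7.85 and 7.96 with Qmimic, against 7.87, 7.84 and 8.54 with AllStar. The matrix protease MMP2, which also cuts big endothelin, lay at 0.14 with Dmimic without AllStar replicate 3 (adjusted p = 0.309 from limma), and MMP9 at 0.02 (adjusted p = 0.962). The chymase gene CMA1 lay at -0.25 (adjusted p = 0.241) and MMEL1, a relative of neprilysin, at -0.20 (adjusted p = 0.212).

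Among 29 measured regulators of EDN1 transcription or mRNA, 1 fell with Dmimic and 1 with Qmimic in the 8 arrays, where 0.647% and 0.253% of all genes were called lower. An unadjusted p under 0.05 was found for 9 of the 29 with Dmimic and 13 of the 29 with Qmimic, against the 21.3% and 20.9% of all genes given above. Both calls were lost, to counts of 0, when AllStar replicate 1 or 2 was left out as well, which leaves 1 AllStar array. The gene was FOSL1 in each, a subunit of AP-1, whose log2 signal was 10.06, 10.23 and 9.66 with Dmimic and 9.73, 10.08 and 10.07 with Qmimic, against 11.09, 11.10 and 10.85 with AllStar. Its change was -1.12 with Dmimic (adjusted p = 0.0127 from limma) and -1.14 with Qmimic (adjusted p = 0.0109), and with 9 arrays neither change passed (adjusted p = 0.069 and 0.111). Between the mimics FOSL1 differed by 0.02, where EDN1 differed by 0.74, and any link of FOSL1 to EDN1 was not tested. The other AP-1 subunits of the list lay in both directions. JUNB had 8.11, 8.09 and 8.40 with Dmimic and 8.07, 8.08 and 7.96 with Qmimic, against 7.77, 7.61 and 7.55 with AllStar, in the same order of groups as EDN1 and as 0.632% of all probe sets. Between the mimics JUNB differed by 0.17 (adjusted p = 0.525 from limma with 8 arrays), so a difference between them was not shown. In the 8 arrays JUNB lay at 0.51 with Dmimic (adjusted p = 0.0342 from limma, under 1.5-fold) and at 0.34 with Qmimic (adjusted p = 0.11). FOSL2 lay at -0.54 with Dmimic (adjusted p = 0.0728) and -0.46 with Qmimic (adjusted p = 0.126) on its probe set with the highest signal, and 1 of its 5 probe sets was called with each mimic. JUN, JUND, FOS and FOSB lay between -0.12 and 0.13 with either mimic, and none passed the adjusted p. SMAD3, a transducer of TGF-beta signals, lay at -0.15 with Qmimic (adjusted p = 0.307), and 1 of its 4 probe sets was called there. The zinc finger factor KLF4 lay at -0.43 with Dmimic (adjusted p = 0.02, under 1.5-fold) and at -0.21 with Qmimic (adjusted p = 0.142). The nuclear receptor PPARG lay at -0.51 with Dmimic (adjusted p = 0.0234, under 1.5-fold) and at -0.31 with Qmimic (adjusted p = 0.105), and SMAD4, the shared mediator of TGF-beta signals, lay at -0.48 with Qmimic (adjusted p = 0.0288, under 1.5-fold) and at -0.31 with Dmimic (adjusted p = 0.0925). The median of the list was -0.03 with Dmimic and -0.05 with Qmimic, where all genes lay at 0.01 and -0.01.

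Of 33 measured genes of receptor-proximal signalling in the 8 arrays, an unadjusted p under 0.05 was found for 9 with Dmimic against AllStar, 9 with Qmimic against AllStar and 5 with Dmimic against Qmimic. Of all genes, 21.3%, 20.9% and 11.7% had one in those comparisons. In the 8 arrays 0 of the 33 were called with Dmimic, where 1.27% of all genes were called. With Qmimic 2 of the 33 were called lower, where 0.253% of all genes were. The count with Qmimic was 0 when AllStar replicate 1 or 2 or Qmimic replicate 1 or 2 was left out as well. GNAI2, an inhibitory G protein subunit, had 9.44, 9.72 and 9.77 with Qmimic and 10.34, 10.32 and 10.34 with AllStar, a change of -0.69 (adjusted p = 0.0204 from limma), and with Dmimic it lay at -0.24 (adjusted p = 0.312). RGS4, which shortens signals of Gq- and Gi-coupled receptors, lay at -0.76 with Qmimic (adjusted p = 0.028 from limma), called on 3 of its 3 probe sets, and at -0.47 with Dmimic (adjusted p = 0.102). The mimics differed by 0.45 on GNAI2 (adjusted p = 0.139 from limma) and by 0.29 on RGS4 (adjusted p = 0.421), so a difference between them was not shown. RGS2, which acts on Gq, lay at -0.34 with Dmimic (adjusted p = 0.0408, under 1.5-fold), and the adaptor SHC1 at 0.30 (adjusted p = 0.102).

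The 30 measured genes of other vasoactive peptides and their receptors had 0 called in either fit. In the 8 arrays 8 of them had an unadjusted p under 0.05 with Dmimic against AllStar, against 21.3% of all genes. The vasodilator gene ADM, which encodes adrenomedullin, had 10.45, 10.44 and 10.54 with Dmimic and 10.36, 10.29 and 10.27 with Qmimic, against 10.19, 10.27 and 9.78 with AllStar. Its change with Dmimic in the 8 arrays was 0.25 (adjusted p = 0.0887 from limma). VIPR1, a receptor of vasoactive intestinal peptide, lay at 0.55 with Dmimic (adjusted p = 0.0843) and 0.58 with Qmimic (adjusted p = 0.0806), PTGS2, the inducible cyclooxygenase, at 0.79 (adjusted p = 0.198) and 0.73 (adjusted p = 0.227), and the thromboxane receptor TBXA2R at 0.20 and 0.20 (adjusted p = 0.211 and 0.21).

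Markers of the cell line and of other cells were read beside EDN1. Of 7 markers of MDA-MB-231, 6 lay above the array median on all 9 arrays, among them VIM at 13.53 to 13.71 and CD44 at 11.77 to 12.13, while SPARC lay at 3.44 to 4.19. The mean over the 7 was 10.52 to 10.63 with Dmimic, 10.52 to 10.66 with Qmimic and 10.79 to 10.81 with AllStar, so it was lower with both mimics without overlap. Of all single probe sets, 7.04% had every Dmimic array below every AllStar array and 10.8% every Qmimic array. In the 8 arrays 1 of the 7 was called against AllStar with each mimic, FOSL1, at -1.12 with Dmimic and -1.14 with Qmimic. Of all genes 1.27% were called there with Dmimic and 0.693% with Qmimic, and FOSL1 is the call already counted among the EDN1 regulators. The shares of all genes called in each fit, given above, stand beside the marker counts below too. The mean includes FOSL1, and another of the 7, AXL, ran from 11.54 to 12.76 over the 9 arrays. A mean without FOSL1 was not made, so which of the other markers were lower is not shown here. The lower mean was there beside the higher EDN1, and its part in the EDN1 values was not tested. Of 10 luminal markers 6 lay above the array median on all 9 arrays, among them KRT18 at 12.19 to 12.72, KRT19 at 11.56 to 12.36, GATA3 at 7.45 to 8.61 and EPCAM at 7.25 to 8.36, while CDH1, FOXA1 and PGR lay low, at 3.44 to 4.02, 3.74 to 4.17 and 3.64 to 4.72. The mean over the 10 was 7.56 to 7.58 with Dmimic, 7.50 to 7.56 with Qmimic and 7.46 to 7.59 with AllStar, with 0 called in either fit. Of 10 markers of endothelium, the cells best known for EDN1, 6 lay above the array median on all arrays. Among them were ESAM at 9.49 to 10.02, ROBO4 at 8.19 to 9.08 and EGFL7 at 7.56 to 8.31. CDH5, the cadherin that defines endothelium, lay at 3.19 to 3.58. The mean over the 10 was 6.49 to 6.55 with Dmimic, 6.46 to 6.53 with Qmimic and 6.46 to 6.59 with AllStar, and none was called in any comparison of either fit. The mean over 5 smooth muscle markers was 6.00 to 6.18 with Dmimic, 6.04 to 6.18 with Qmimic and 6.27 to 6.37 with AllStar, that over 4 measured leukocyte markers was 4.80 to 4.85, 4.78 to 4.81 and 4.68 to 5.03, and that over 4 measured melanocyte markers was 6.45 to 6.56, 6.42 to 6.46 and 6.42 to 6.44, in the same order of groups, with 0 of these called in either fit. The smooth muscle mean was thus also lower with each mimic than with AllStar, without overlap. The melanocyte mean was higher with Dmimic than with AllStar without overlap, at 6.45 to 6.56 against 6.42 to 6.44, and it overlapped that with Qmimic. With 1 cell line per well, a share of cells with more EDN1 RNA and a rise in every cell cannot be told apart.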

How the data were processed

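Total RNA was labelled by the one-cycle method from an oligo(dT) primer and hybridised to 9 HG-U133 Plus 2.0 arrays. The authors deposited 1 log2 signal for each probe set and array, made with RMA per the series text; RMA and limma stand, with no version, in the submitters' processing notes. From them 62 control probe sets were left out and 54613 were tested with no filter on low values; gene names came from the platform annotation given with the series, which names 1 gene for 41091 of them. In limma 3.58.1 under R 4.3.3, 1 model with 3 groups was fitted to all probe sets (eBayes, no trend), with p adjusted by Benjamini-Hochberg over all of them, and again without AllStar replicate 3. The fit was tested on simulated data for 9 arrays, with a spread that left out the deviations of AllStar replicate 3. That test therefore does not show how the fit behaves with such an array. Probe sets of like level were those within 0.5 log2. Precision is limited by the number of arrays, which have no read depth. Replicates are biological per the labels, which do not say how cultures were separated, so p-values measure the spread between these wells.

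The members, the 4 lists and the doubt about AllStar replicate 3 were chosen with earlier results of these data known. Named genes were all members, from each list the 4 genes lowest in adjusted p over the comparisons without AllStar replicate 3, and the 5 genes most like EDN1 with 9 and with 8 arrays; FURIN, SMAD3 and the AP-1 subunits other than FOSL1 were added for their role after their values were seen. Alternatives were other array sets, a replicate block, other thresholds, a level filter, other normalisations and another variance model. Promoter and miRNA sequences are from RefSeq (GRCh38.p14).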

Additional observations from a re-analysis of the deposited data

How the results depend on the processing

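The log2 change of the leading EDN1 probe sets kept its sign in every setting run: 1.06 to 1.29 on 222802_at and 0.93 to 1.16 on 218995_s_at with Dmimic against AllStar, 0.31 to 0.55 and 0.40 to 0.64 with Qmimic against AllStar, and 0.69 to 0.78 and 0.45 to 0.59 with Dmimic against Qmimic. Its call did not hold as widely. Where the call with Dmimic against AllStar was lost by leaving out an array or the Qmimic group, 0 of all 54613 probe sets were called. The count of endothelin probe sets called with Dmimic against AllStar, 2 with 9 arrays, was 0 to 2 when 1 array was left out, 0 when only the groups compared were fitted, 0 at a log2 change of at least 1.5 and 1 without AllStar replicates 3 and 1. With Dmimic against Qmimic, 0 with 9 arrays, it was 0 to 1 when 1 array was left out (1 without AllStar replicate 3), 1 when only the groups compared were fitted, 1 after quantile normalisation, of 9 or of 8 arrays, 1 after cyclic loess, and 1 to 2 without AllStar replicate 3 and 1 further array (2 without Dmimic replicate 2). With a replicate block the count with Dmimic against AllStar was 0, as was that over all 54613 probe sets, and the EDN1 change on 222802_at was 1.23. Deviations from the group means correlated at -0.275 to 0.219 between arrays of equal number, above 0.1 in 3 of 9 pairs. Between arrays of unequal number they correlated at -0.29 to 0.347. The labels do not say whether arrays of equal number belong together, and with 3 arrays in a group these correlations cannot decide it.

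The third EDN1 probe set, 1564630_at, changed sign with Dmimic against AllStar, with values between -0.46 and 0.10 over all settings (0.02 without AllStar replicate 3). Members near 0 changed sign too. With Dmimic against AllStar, EDN3 (217154_s_at, -0.02) was 0.04 after quantile normalisation, 0.07 after cyclic loess, 0.03 after centring and 0.11 after quantile normalisation of 8 arrays; leaving out 1 array gave -0.09 to 0.09. In the same comparison ECE1 was 0.14 after quantile normalisation of 8 arrays (-0.27 to 0.15 without 1 array), ECE2 (227103_s_at) -0.01 after cyclic loess and -0.10 after quantile normalisation of 8 arrays (-0.10 to 0.14), and EDNRB -0.46 to 0.07 without 1 array. With Qmimic against AllStar, EDN3 was 0.02 and 0.06 after cyclic loess and quantile normalisation of 8 arrays (-0.16 to 0.02), EDNRB -0.11, -0.13 and -0.36 after quantile normalisation, cyclic loess and quantile normalisation of 8 arrays (-0.33 to 0.20), ECE1 0.10 and ECE2 -0.05 after the last (-0.29 to 0.13 and -0.03 to 0.21), and EDN2 -0.01 to 0.07 without 1 array. With Dmimic against Qmimic, EDN2 was -0.03 to 0.08 and ECE1 -0.03 to 0.06 without 1 array. The cause was not tested. The settings that left out a further array and the normalisation of 8 arrays were chosen after seeing the data. Of the 5 genes most like EDN1, 2 stayed without AllStar replicate 3, 1 with Spearman's rho, 4 with 218995_s_at and 0 with 1564630_at.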
